A study of Mus musculus with 19 samples.

Results

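YAP and TAZ are paired transcriptional coactivators, and 8 genes around them were followed here in neoplastic cells sorted from mouse lung tumors. The 8 genes were *Yap1* (YAP), *Wwtr1* (TAZ), *Tead1*, *Lats2*, *Amotl2*, *Ankrd1*, *Ajuba* and *Axl*, matched by symbol among the 53558 genes listed for each library. The tumors came from mice with a Cre-activated tdTomato reporter and a Cre-activated Cas9 (R26 LSL-tdTomato;H11 LSL-Cas9, on a mixed C57BL/6J and 129 background), which every group shared. A lentivirus carrying Cre and guide RNAs was given into the airway, and tumors grew for 17 weeks. The virus was sgInert (control guides, 7 libraries), sgCebpa/b/d (guides to the transcription factor genes *Cebpa*, *Cebpb* and *Cebpd*, 7 libraries) or sgLkb1 (a guide to the kinase gene *Stk11*, also named *Lkb1*, 5 libraries). Virus is taken up by any airway or alveolar cell it reaches, guide cutting need not alter every allele, and the labels of several libraries repeat an animal number, which limits each group as a model of a clean deletion. The labels have 12 libraries from females and 7 from males. Of the sgInert libraries 3 were from females and 4 from males, and of sgCebpa/b/d 4 and 3. All 5 sgLkb1 libraries were from females, so sex and virus cannot be fully told apart in comparisons with that group.

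In the Hippo pathway, the kinases MST and LATS phosphorylate YAP and TAZ and hold them outside the nucleus. Unphosphorylated YAP and TAZ bind TEAD transcription factors at DNA and raise the transcription of growth, matrix and cytoskeletal genes. LKB1 is known to act through the MARK kinases and the polarity protein Scribble to restrain YAP, and in the lung YAP and TAZ are known for roles in alveolar epithelial fate and repair. Much of this control is on protein phosphorylation and location, which RNA counts do not measure.

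Among the 8 genes, *Wwtr1* passed the threshold in 1 comparison over all libraries, sgCebpa/b/d against sgInert, and no other gene passed in any. Its level in sgCebpa/b/d was 1.43-fold that of sgInert (95% interval 1.14 to 1.78), with a log2 fold change of 0.51 ± 0.16 (SE) and an edgeR adjusted p of 0.0388. The direct test between the targeted groups gave 0.13 ± 0.17 for *Wwtr1* (adjusted p = 0.755), so no difference between them was shown. *Ankrd1* was too low to be tested, so 7 of the 8 genes entered the test across 13986 genes. In sgCebpa/b/d against sgInert, 1 of 7 passed an adjusted p of 0.05, where 10.1% of all genes tested passed in either direction. The same comparison had 1 of 7 with an unadjusted p under 0.05, against 23.2% of all genes. In sgLkb1 against sgInert, 0 of 7 passed by edgeR, where 5.78% of all genes passed. An unadjusted p under 0.05 was found there for 3 of 7, against 18.5% of all genes. Between the targeted groups, 0 of 7 passed by edgeR, where 5.96% of all genes passed, and 0 had an unadjusted p under 0.05, against 18.3% of all genes. DESeq2 gave 1, 0 and 0 in the same order. The median log2 fold change of the 7 genes was 0.25, 0.23 and 0.11 in these comparisons, against 0.02, −0.01 and 0.03 over all genes tested. The first and second comparisons share the same sgInert libraries and are not independent.

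The libraries held 2760731 to 9944134 expected counts. Their titles fall into 3 series, numbered ZR (4 sgInert libraries), MT (3 sgInert, 4 sgCebpa/b/d and 3 sgLkb1) or without an animal number (3 sgCebpa/b/d and 2 sgLkb1), so that only the MT series holds all 3 groups. What the series stand for is not given in the labels, and over all libraries the series and the virus cannot be fully told apart. *Stk11* had 7.53 to 12.49 CPM (counts scaled to TMM-adjusted library size) in sgLkb1 and 19.5 to 22.9 CPM in sgInert, without overlap. *Cebpa* was higher in every library labelled sgCebpa/b/d (71.9 to 125 CPM) than in every sgInert library (42.7 to 68.8 CPM). The other targeted genes split that group by title series. *Cebpb* had 3.98 to 5.11 CPM in its MT-numbered libraries, 15.8 to 23.6 CPM in those without a number and 3.06 to 6.58 CPM in sgInert. *Cebpd* had 55.0 to 80.9, 152 to 166 and 43.0 to 122 CPM in that order. In sgLkb1 *Cebpd* also split, at 72.3 to 101 CPM in MT-numbered libraries and 183 to 195 CPM without a number. Indels need not lower a transcript, so these levels do not check that label, and directions for sgCebpa/b/d are those of the libraries labelled so. The sort excluded cells bearing CD45, CD31, F4/80 or Ter119. Elsewhere the study sorted tdTomato-positive cells, a gate that would remove unlabelled stroma, but such a gate is not given for these libraries in the sources used here. The sum of 6 alveolar type II markers was 56707 to 68904 CPM in sgInert and 36802 to 48615 CPM in sgLkb1, without overlap. In sgCebpa/b/d it was 52447 to 59312 CPM in MT-numbered libraries and 31910 to 40649 CPM in those without a number. The 5 libraries without an animal number stood apart in markers of the cells the sort should remove. Their 6 endothelial markers summed to 97.8 to 246 CPM, against 9.09 to 86.0 CPM in the other 14, and their 7 immune markers to 24.0 to 71.3 CPM, against 4.71 to 19.3 CPM. *Adgre1*, which encodes F4/80, was at 0 counts in every ZR-numbered and MT-numbered library. The sum of 7 fibroblast markers was 12.6 to 169 CPM in sgInert, 69.0 to 291 CPM in sgCebpa/b/d and, in sgLkb1, 105 to 310 CPM. The 6 smooth muscle and pericyte markers summed to 3.17 to 21.2 CPM in sgInert, 8.33 to 43.2 CPM in sgCebpa/b/d and, in sgLkb1, 25.0 to 58.8 CPM. The 4 mesothelial markers summed to at most 3.45 CPM in sgInert and at most 4.57 CPM in sgCebpa/b/d, below every sgLkb1 library (6.90 to 21.1 CPM). Over all libraries only *Msln* of these 4 was high enough to be tested. *Wt1* was at 0 counts in every sgInert library and every MT-numbered sgLkb1 library. Whether mesothelial cells were present was not tested. In these bulk samples, fewer cells of a type and less RNA per cell cannot be told apart.

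On the GRCm38 build, all 8 are protein-coding genes in the GENCODE annotation. *Yap1* lies at chr9:7931999-8004596, *Wwtr1* at chr3:57455649-57575910, *Lats2* at chr14:57689662-57758388, *Ankrd1* at chr19:36111961-36120099, *Ajuba* at chr14:54567472-54577558 and *Axl* at chr7:25757273-25788705, all on the minus strand. *Tead1* lies at chr7:112679318-112906807 and *Amotl2* at chr9:102716672-102733418, both on the plus strand. Exons of *Yap1* overlap those of *Gm20416* on the opposite strand, which was at 0 counts in every library. Exons of *Lats2* overlap those of *Gm49361* on the same strand, and reads within the shared stretches cannot be told apart. *Gm49361* is not among the genes listed for each library.

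TEAD proteins are known to bind DNA at GGAATG, or CATTCC read from the other strand, and the promoters were searched for these letters because the members are linked by TEAD binding. RefSeq promoter windows on GRCm38.p6, from 250 bases before to 50 bases after a start site, were matched for 7 of the 8 genes and not for *Tead1*. All 7 held the letters in at least 1 window, against 16.6% of 27025 genes with a window. Of the members' own 9 windows, 8 held them, against 14.7% of 32851 windows. The members were picked as known YAP/TAZ genes, so this share is a description with no test. The pieces below run 5′ to 3′ along each gene's own strand with the 6 matching bases in capitals, and *Ccn1* (listed as *Cyr61* in the count tables), a known target of YAP, is added for comparison.
Wwtr1: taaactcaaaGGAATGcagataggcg
Yap1: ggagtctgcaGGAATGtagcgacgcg
Amotl2: gaaactctcaCATTCCtggcatagca
Ajuba, the outer match: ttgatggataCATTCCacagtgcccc
Ajuba, the inner match: cccctccgcgCATTCCaactgtaaac
Ankrd1, the outer match: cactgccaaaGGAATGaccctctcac
Ankrd1, the inner match: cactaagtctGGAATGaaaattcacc
Axl: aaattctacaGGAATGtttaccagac
Lats2: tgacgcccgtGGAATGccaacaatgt
Ccn1: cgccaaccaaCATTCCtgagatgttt
These pieces lie at chr3:57576031-57576056 (*Wwtr1*), chr9:8004722-8004747 (*Yap1*), chr9:102717729-102717754 (*Amotl2*), chr14:54577832-54577857 and chr14:54577810-54577835 (*Ajuba*), chr19:36120039-36120064 and chr19:36119952-36119977 (*Ankrd1*), chr7:25788951-25788976 (*Axl*), chr14:57746104-57746129 (*Lats2*) and chr3:145650073-145650098 (*Ccn1*). The match began 65 bases before the start site in *Amotl2*, 136 before it in *Wwtr1*, 141 before it in *Yap1* and 233 before it in *Axl*. In *Ajuba* the matches began 186 and 164 bases before the start site, and in *Ankrd1* 210 and 123 bases before it. In *Lats2* the match lay 4 bases past the start site in 1 of its 2 windows, and the other window held none. A match is a run of letters and not a measured binding site.

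*Yap1*, which encodes the coactivator YAP, ranged from 103 to 167 CPM (median 130) in the 7 sgInert libraries and from 103 to 149 CPM (median 122) in the 7 sgCebpa/b/d libraries. The 5 sgLkb1 libraries had 119, 113, 116, 129 and 106 CPM. The ranges of all groups overlapped, and every sgLkb1 library lay within the sgInert range. The log2 fold change was −0.08 ± 0.10 (SE) in sgCebpa/b/d against sgInert, with a 95% interval of −0.29 to 0.13 and an adjusted p of 0.696. For sgLkb1 it was −0.15 ± 0.11, with an interval of −0.38 to 0.09 and an adjusted p of 0.541. These intervals span folds of 0.816 to 1.09 and of 0.769 to 1.06, so a change of *Yap1* transcript beyond them was not seen at this depth.

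*Wwtr1*, which encodes TAZ, the paralog of YAP, varied more. It ranged from 94.8 to 220 CPM (median 146) in sgInert and from 157 to 258 CPM (median 231) in sgCebpa/b/d. In the sgLkb1 libraries it was at 175, 196, 191, 224 and 190 CPM. The groups overlapped: ZR-numbered sgInert libraries reached 195 and 220 CPM, within the range of both targeted groups. Restricted to the MT series sgInert did not overlap the targeted groups, with 115, 146 and 94.8 CPM in sgInert, 196, 233, 157 and 187 CPM in sgCebpa/b/d, and 196, 191 and 224 CPM in sgLkb1. The sgInert libraries at 115 and 146 CPM share an animal number and came from a female. The sgInert library at 94.8 CPM came from a male, while every targeted MT library came from a female. Comparisons with sgInert in the MT series are therefore not balanced by sex. How many of all genes separate in this way between so few libraries was not counted, here or for the genes below.

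The call of *Wwtr1* in sgCebpa/b/d sits near the threshold. It was kept in 11 of 19 fits that left out 1 library, with adjusted p from 0.00743 to 0.0804, and lost when any of sgCebpa/b/d replicates 2, 5, 6 or 7 or sgInert replicates 2, 5, 6 or 7 was left out. It stayed positive in all 19, with log2 fold changes from 0.43 to 0.63. Libraries of one animal number are not independent, and with such libraries summed the call was lost (0.56 ± 0.18, adjusted p = 0.0634), as it was with those lacking a number also summed per virus (0.49 ± 0.22, adjusted p = 0.320). For sgLkb1 the log2 fold change against sgInert was 0.38 ± 0.17 with an interval of 0.03 to 0.73 and an adjusted p of 0.218. Within the MT series the values were 0.69 ± 0.16 (adjusted p = 0.0121) for sgCebpa/b/d and 0.77 ± 0.16 (adjusted p = 0.0102) for sgLkb1. Alveolar type I markers moved with it: their 8 genes summed to 832 to 1319 CPM in sgInert, 1621 to 2560 CPM in sgCebpa/b/d and, in sgLkb1, 1227 to 1638 CPM, and 6 and 1 of the 8 passed against sgInert, where 10.1% and 5.78% of all genes did. Of the 6 alveolar type II markers, whose sums are given above, 4 and 3 were lower by the same test. The part of such cells in the level of *Wwtr1* was not tested. Between the targeted groups *Wwtr1* differed by 0.13 ± 0.17 (interval −0.23 to 0.48, adjusted p = 0.755).

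**Figure D1:**
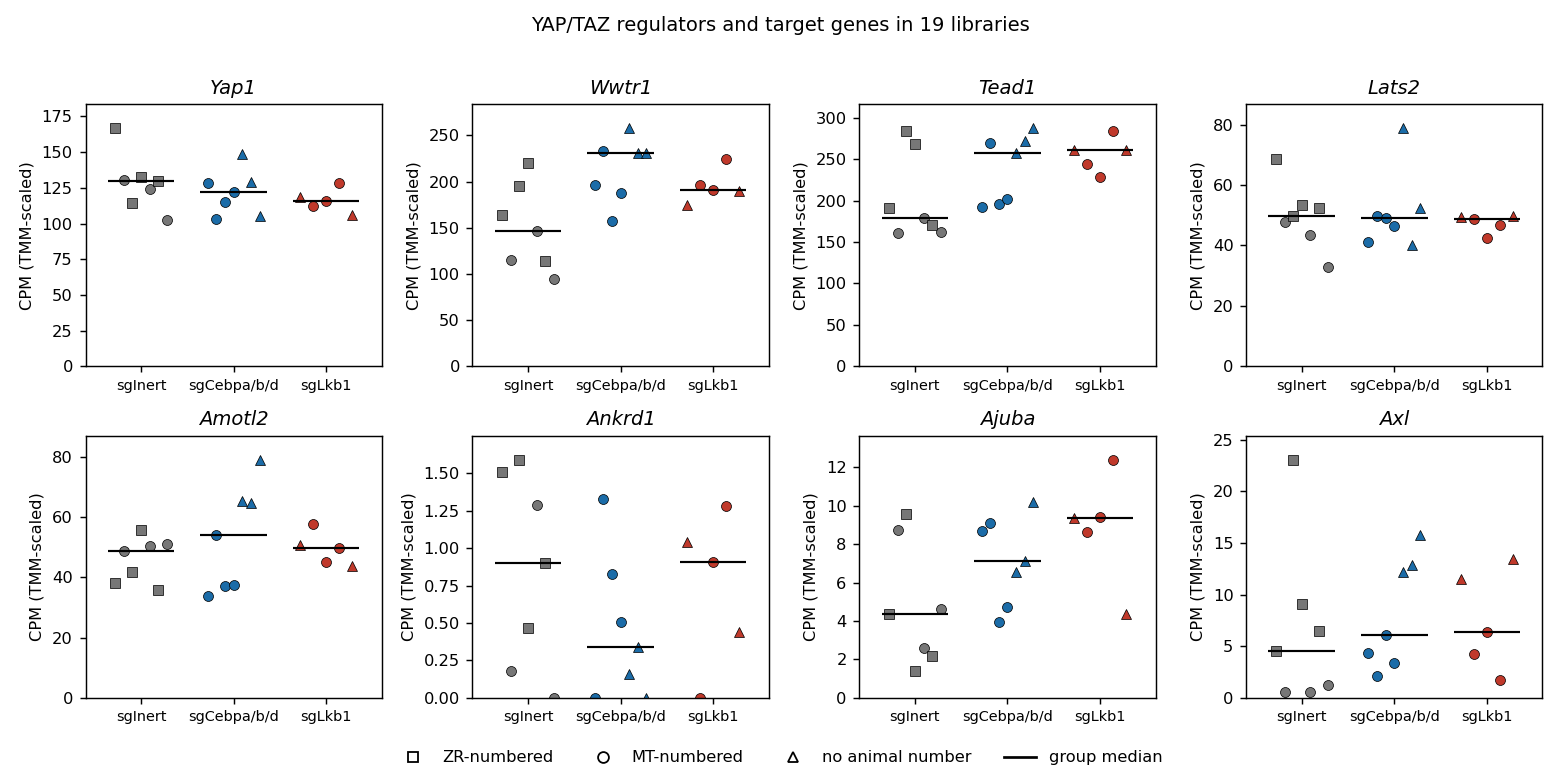
Level of each of the 8 genes in CPM (linear axes from 0) in the 19 libraries, by virus group. Points are libraries, their shape gives the title series, and the line is the group median. *Wwtr1* medians were 146, 231 and 191 CPM in sgInert, sgCebpa/b/d and sgLkb1, while those of *Yap1* were 130, 122 and 116 CPM.

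YAP and TAZ transcripts were also set against each other within each library, which needs no scaling between libraries. The comparison was chosen after the values of both genes had been seen and is given with no test. On the per-length scale of TPM (transcript abundance after division by gene length), the ratio of *Wwtr1* to *Yap1* was 0.696 to 1.54 in sgInert (median 0.867), 1.25 to 2.00 in sgCebpa/b/d (median 1.56) and, in sgLkb1, 1.27 to 1.56 (median 1.499). TAZ transcript exceeded YAP transcript in all 7 sgCebpa/b/d libraries, all 5 sgLkb1 libraries and 3 of 7 sgInert libraries. The sgInert libraries with ratios inside the range of the targeted groups were both ZR-numbered. In the MT series the ratio was 0.696 to 1.05 in sgInert, 1.25 to 2.00 in sgCebpa/b/d and, in sgLkb1, 1.44 to 1.56.

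**Figure D2:**
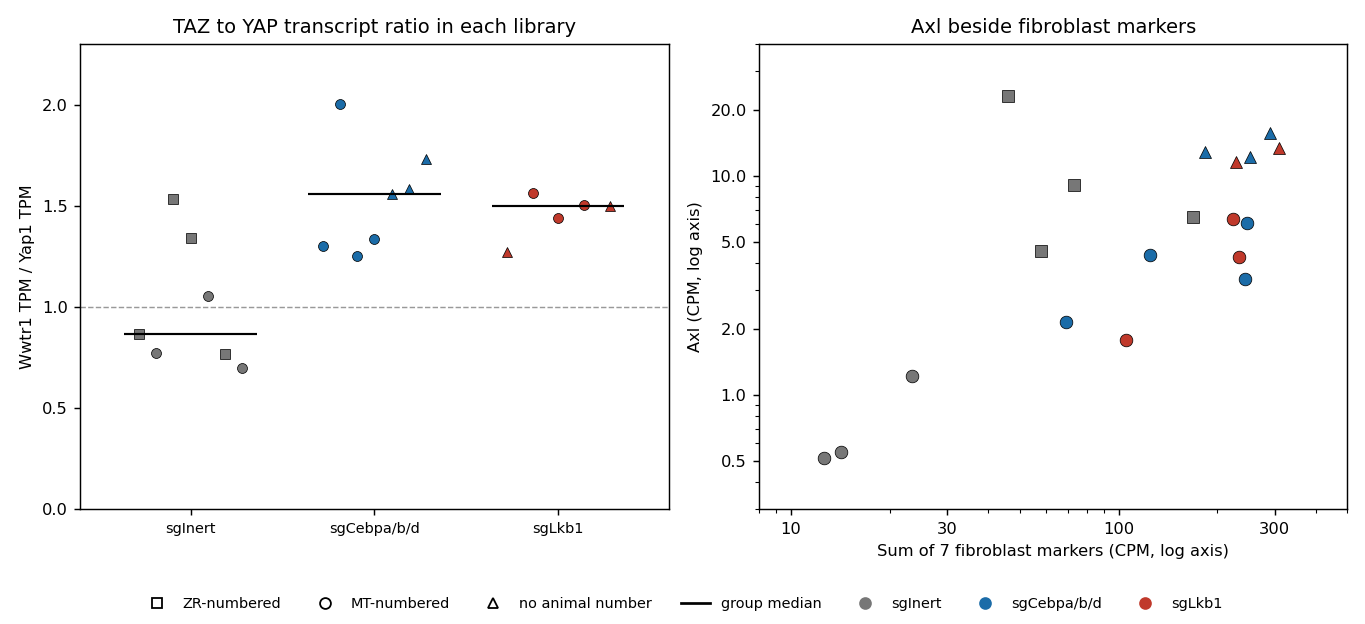
Left, ratio of *Wwtr1* to *Yap1* (both in TPM, linear axis) in each library by group, with the group median as a line and equality dashed. Right, *Axl* against the sum of 7 fibroblast markers in each library, both in CPM on log axes, coloured by group. The 3 MT-numbered sgInert libraries sit lowest on both axes, at 0.516 to 1.22 CPM of *Axl* and 12.6 to 23.4 CPM of the markers.

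*Tead1*, a DNA-binding partner of YAP and TAZ, had the highest TPM of the 8 genes, with a median of 63.4 TPM over the 19 libraries. It ranged from 161 to 284 CPM (median 178) in sgInert and from 192 to 287 CPM (median 258) in sgCebpa/b/d. The sgLkb1 libraries had 261, 244, 228, 284 and 261 CPM. All groups overlapped through a pair of ZR-numbered sgInert libraries at 284 and 268 CPM. The log2 fold change of *Tead1* was 0.25 ± 0.14 (adjusted p = 0.293) in sgCebpa/b/d and 0.34 ± 0.15 (adjusted p = 0.213) in sgLkb1, with intervals of −0.04 to 0.53 and 0.03 to 0.65. Of the MT libraries, sgInert had 161, 178 and 162 CPM, below all targeted libraries of that series. There the values were 0.36 ± 0.13 (adjusted p = 0.115) and 0.58 ± 0.14 (adjusted p = 0.0182). The targeted groups differed in *Tead1* by −0.09 ± 0.15 (adjusted p = 0.805).

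*Lats2* encodes a kinase that phosphorylates YAP and TAZ and is itself a YAP target. It had 32.9 to 68.7 CPM (median 49.8) in sgInert and 40.1 to 78.8 CPM (median 49.0) in sgCebpa/b/d. The sgLkb1 libraries had 49.5, 48.8, 42.3, 46.9 and 49.7 CPM, all inside both other ranges. Its log2 fold changes were 0.04 ± 0.15 (interval −0.27 to 0.35, adjusted p = 0.914) in sgCebpa/b/d and −0.07 ± 0.16 (interval −0.41 to 0.27, adjusted p = 0.882) in sgLkb1.

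*Amotl2* encodes an angiomotin-family protein that binds YAP at cell junctions, and is a YAP target as well. It had 35.8 to 55.7 CPM (median 48.6) in sgInert and 50.5, 57.7, 44.9, 49.6 and 43.8 CPM in the sgLkb1 libraries, which overlapped. The sgCebpa/b/d libraries split by title series. The 3 without an animal number, all from males, had 65.2, 64.6 and 79.0 CPM, above every sgInert and sgLkb1 library, and the 4 MT-numbered ones, all from females, had 33.7, 53.9, 37.1 and 37.5 CPM. Sex and title series cannot be told apart within that group. The log2 fold change in sgCebpa/b/d against sgInert was 0.21 ± 0.17 over all libraries (adjusted p = 0.507) and −0.30 ± 0.17 in the MT series (adjusted p = 0.346). For sgLkb1 it was 0.10 ± 0.19 (adjusted p = 0.841).

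*Ajuba* encodes a LIM-domain protein that binds and inhibits LATS kinases. Its counts were low, 6 to 126 per library. It ranged from 1.40 to 9.54 CPM (median 4.34) in sgInert and from 3.96 to 10.2 CPM (median 7.11) in sgCebpa/b/d. The sgLkb1 libraries had 9.35, 8.62, 9.40, 12.4 and 4.37 CPM. Most sgLkb1 libraries lay at or near the top of the sgInert range, and the groups overlapped. Its log2 fold change was 0.90 ± 0.39 in sgLkb1, with an interval of 0.09 to 1.72 and an adjusted p of 0.211, and 0.60 ± 0.37 in sgCebpa/b/d, with an interval of −0.16 to 1.36 and an adjusted p of 0.355. A change of the size of these estimates was therefore not resolved at this depth.

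*Axl* encodes a receptor tyrosine kinase, is a YAP target, and is known to be expressed by fibroblasts and macrophages as well as by some tumor cells. It was at 0.516 to 23.1 CPM (median 4.53) in sgInert, 2.15 to 15.7 CPM (median 6.10) in sgCebpa/b/d, and 11.5, 4.23, 6.37, 1.77 and 13.4 CPM in sgLkb1. The groups overlapped, and within each group the values differed by title series. Libraries without an animal number had 11.5 to 15.7 CPM in both targeted groups, ZR-numbered sgInert libraries 4.53, 23.1, 9.08 and 6.48 CPM, and MT-numbered sgInert libraries 0.546, 0.516 and 1.22 CPM (3, 4 and 5 counts). Over all libraries the log2 fold change of *Axl* was 0.36 ± 0.67 (adjusted p = 0.808) in sgCebpa/b/d and 0.23 ± 0.72 (adjusted p = 0.914) in sgLkb1.

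Within the MT series *Axl* rose in both targeted groups, by 2.41 ± 0.66 on the log2 scale in sgCebpa/b/d (adjusted p = 0.0356) and by 2.46 ± 0.68 in sgLkb1 (adjusted p = 0.0430). The sum of the 7 fibroblast markers moved with it. There that sum was 12.6 to 23.4 CPM in sgInert, 69.0 to 246 CPM in sgCebpa/b/d and 105 to 233 CPM in sgLkb1, and *Lum* was at 0 counts in the sgInert libraries. Of the 7 markers, 6 passed there in sgCebpa/b/d (*Col1a1*, *Col1a2*, *Col3a1*, *Dcn*, *Lum* and *Postn*), where 8.55% of all genes did. In sgLkb1 5 passed (the same but for *Lum*), where 6.97% of all genes did. Over all libraries 3 of 7 (*Col3a1*, *Dcn* and *Postn*) passed against sgInert in each targeted group, where 10.1% and 5.78% of all genes did. The same libraries carry the MT-series values of *Wwtr1* and *Tead1*. Within each MT group, the library with the lowest marker sum had the highest *Wwtr1* and *Tead1*. These were sgInert replicate 5 (12.6 CPM of the markers), sgCebpa/b/d replicate 2 (69.0 CPM) and sgLkb1 replicate 4 (105 CPM). They were also the deepest libraries of those groups, at 7791705, 9944134 and 9234683 expected counts. Outside the MT series the order was mixed. Of the ZR-numbered sgInert libraries, replicate 3 had the lowest sum (45.9 CPM) and the highest *Tead1* (284 CPM). Of the sgCebpa/b/d libraries without an animal number, replicate 7 had the highest sum (291 CPM) and the highest *Tead1* (287 CPM). The part of these markers in any of these results was not tested.

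The count of members past the threshold within the MT series was 2 of 7 in sgCebpa/b/d (*Wwtr1* and *Axl*), where 8.55% of all genes tested passed, and 3 of 7 in sgLkb1 (*Wwtr1*, *Tead1* and *Axl*), where 6.97% passed. With the title series as a covariate, comparisons with sgInert rest mainly on the MT libraries, since no other series holds sgInert beside a targeted group. That fit is therefore not a separate result from all libraries. In it, *Wwtr1* and *Axl* passed in sgCebpa/b/d (0.79 ± 0.19, adjusted p = 0.0130, and 2.46 ± 0.62, adjusted p = 0.0170), where 6.62% of all genes passed. They also passed in sgLkb1 (0.67 ± 0.19, adjusted p = 0.0484, and 2.43 ± 0.63, adjusted p = 0.0265), where 4.7% passed. Of the MT-numbered libraries, 3 of 4 in sgCebpa/b/d carry the same animal number, as do 2 of 3 in sgLkb1 and 2 of 3 in sgInert, so that these p-values rest on few animals.

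**Figure D3:**
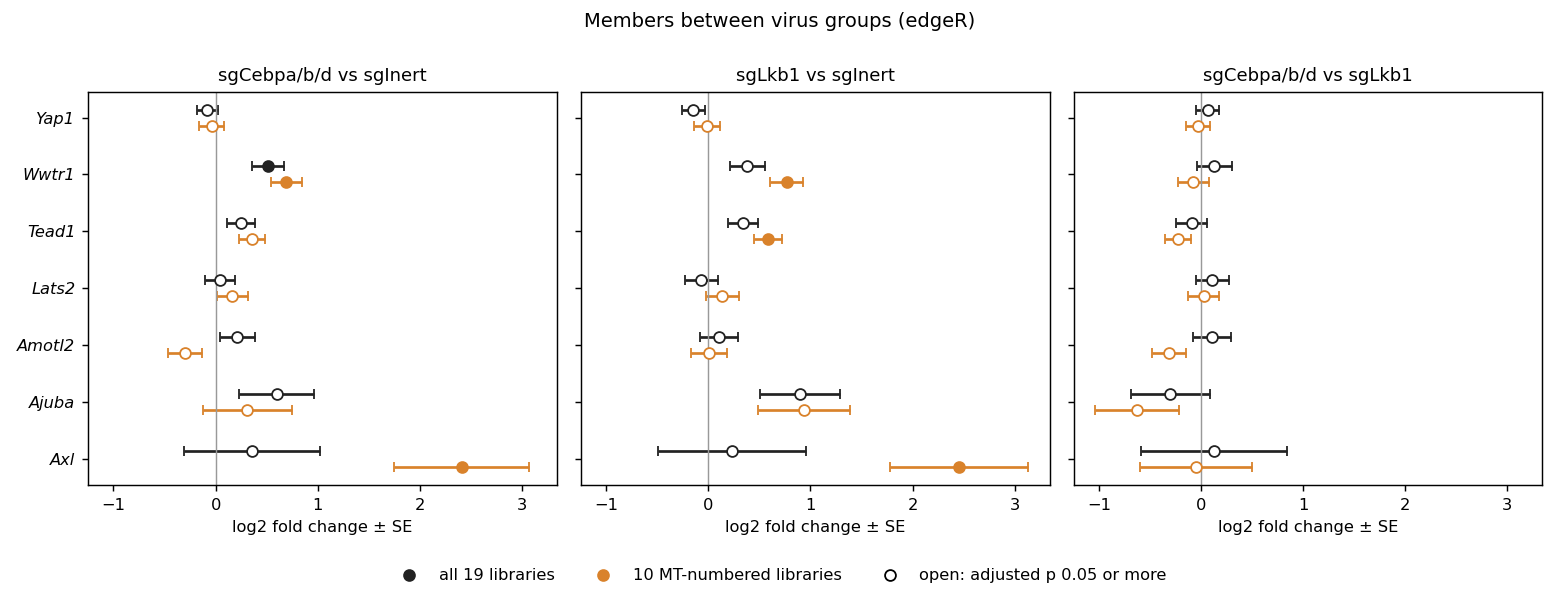
Log2 fold change of the 7 tested genes in each comparison (edgeR, points with SE bars), over all 19 libraries in black and over the 10 MT-numbered libraries in orange. Filled points had an adjusted p under 0.05. *Axl* moved from 0.36 to 2.41 between these fits in sgCebpa/b/d against sgInert and from 0.23 to 2.46 in sgLkb1 against sgInert.

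*Ankrd1* encodes an ankyrin-repeat protein and is a commonly used YAP/TAZ reporter gene. It was close to silent in every group. It had 0 to 10 counts in sgInert libraries, 0 to 13 in sgCebpa/b/d and 9, 0, 6, 13 and 3 in sgLkb1, or at most 1.59 CPM. Each group held at least 1 library with 0 counts, and no difference was tested.

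On the TPM scale, which allows genes to be compared, the medians over the 19 libraries ran from *Tead1* (63.4 TPM) and *Wwtr1* (58.8 TPM) through *Yap1* (41.4 TPM), *Amotl2* (21.2 TPM) and *Lats2* (13.5 TPM) to *Ajuba* (3.88 TPM), *Axl* (1.92 TPM) and *Ankrd1* (0.46 TPM). The ranges of *Tead1* (37.5 to 83.3 TPM), *Wwtr1* (25.7 to 78.2 TPM) and *Yap1* (31.4 to 55.1 TPM) overlapped, as did those of *Amotl2* (12.98 to 26.5 TPM) and *Lats2* (8.50 to 20.2 TPM). Those of *Ajuba* (0.79 to 8.50 TPM), *Axl* (0.16 to 6.94 TPM) and *Ankrd1* (0 to 1.30 TPM) also overlapped their neighbours.

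A further 18 genes of a published YAP/TAZ target signature were read beside the members, of which 16 were tested. In sgCebpa/b/d against sgInert 5 of 16 passed, 4 of them higher, where 10.1% of all genes passed. These were *Igfbp3* (2.503 ± 0.42, adjusted p = 0.000352), *Ctgf* (1.24 ± 0.30, adjusted p = 0.00962), *Tgfb2* (1.09 ± 0.19, adjusted p = 0.000607) and *Asap1* (0.87 ± 0.25, adjusted p = 0.0285). They encode an insulin-like growth factor binding protein, a matricellular protein, a TGF-beta ligand and an ARF GTPase-activating protein. *Rbms3*, for an RNA-binding protein, fell by 1.120 ± 0.12 (adjusted p = 1.26e-06). The median log2 fold change of the 16 was 0.07, against 0.02 over all genes. The 2 not tested were *Fjx1* and *Foxf2*.

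Of the same 16 target genes, 4 passed in sgLkb1 against sgInert, where 5.78% of all genes did. *Igfbp3* (2.11 ± 0.44, adjusted p = 0.00491), *Crim1*, for a transmembrane BMP-binding protein (1.31 ± 0.36, adjusted p = 0.0300), and *Tgfb2* (1.09 ± 0.21, adjusted p = 0.00230) rose. *Rbms3* fell by 0.45 ± 0.13 (adjusted p = 0.0357). The median of the 16 was 0.40, against −0.01 over all genes. Within the MT series 7 of 16 rose in sgLkb1 (*Crim1*, *Ctgf*, *F3*, *Igfbp3*, *Nt5e*, *Ptpn14* and *Tgfb2*), where 6.97% of all genes passed, and 5 of 16 passed in sgCebpa/b/d, with *Ctgf*, *Igfbp3* and *Tgfb2* higher and *Gadd45a* and *Rbms3* lower, where 8.55% passed. *Rbms3* did not keep its sgLkb1 call there (−0.46 ± 0.17, adjusted p = 0.122), nor *Asap1* its sgCebpa/b/d call (0.66 ± 0.31, adjusted p = 0.251). Moving with the sgLkb1 values were the pericyte marker *Rgs5* (3.32 ± 0.66, adjusted p = 0.00333) and *Msln* (3.17 ± 0.66, adjusted p = 0.00493), the only mesothelial marker tested. The marker sums of both cell types given above moved with them. The part of these markers in these results was not tested.

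*Igfbp3* and *Tgfb2* were separated from sgInert in every targeted library. *Igfbp3* had 1.44 to 6.99 CPM in sgInert, 8.68 to 46.7 CPM in sgCebpa/b/d, and 17.8, 10.3, 15.2, 17.9 and 21.1 CPM in sgLkb1. Its log2 fold change was smaller in the MT series, 1.19 ± 0.28 in sgCebpa/b/d (adjusted p = 0.0178) and 1.70 ± 0.29 in sgLkb1 (adjusted p = 0.00249). With title series as a covariate the calls were lost, at 1.48 ± 0.45 (adjusted p = 0.0545) and 1.41 ± 0.45 (adjusted p = 0.0789). The sgCebpa/b/d libraries without an animal number had 18.6 to 46.7 CPM of *Igfbp3*, above the MT-numbered ones at 8.68 to 11.02 CPM, and are those with the higher endothelial and immune sums. *Tgfb2* had 5.85 to 23.9 CPM in sgInert, 28.2 to 37.8 CPM in sgCebpa/b/d, and 26.3, 30.9, 36.6, 36.9 and 25.2 CPM in sgLkb1. *Tgfb2* had, in the MT series, log2 fold changes of 1.17 ± 0.26 (adjusted p = 0.0115) and 1.45 ± 0.27 (adjusted p = 0.00441). The fibroblast marker sums given above moved with *Igfbp3*, *Ctgf* and *Tgfb2* as well, and their part was not tested.

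The textbook YAP reporters *Ctgf* and *Cyr61* were abundant, unlike *Ankrd1*. *Ctgf* had 12.7 to 46.1 CPM in sgInert, 35.5 to 118 CPM in sgCebpa/b/d, and 58.3, 56.8, 54.1, 31.2 and 64.2 CPM in sgLkb1, where its log2 fold change did not pass over all libraries. *Ctgf* rose within the MT series in both targeted groups, by 1.22 ± 0.27 (adjusted p = 0.0115) and 1.30 ± 0.28 (adjusted p = 0.0121). *Cyr61* had 59.0 to 332 CPM in sgInert, 101 to 437 CPM in sgCebpa/b/d, and 138, 190, 197, 187 and 142 CPM in sgLkb1, with all groups overlapping and no call over all libraries. In libraries without an animal number, *Cyr61* was higher in sgCebpa/b/d (387, 368 and 437 CPM) than in sgLkb1 (138 and 142 CPM), by 1.49 ± 0.14 (adjusted p = 8.98e-05), as was *Ctgf* by 0.83 ± 0.17 (adjusted p = 0.0168), where 4.14% of all genes passed. Those sgCebpa/b/d libraries came from males and those of sgLkb1 from females, so sex and virus cannot be told apart there. In the same libraries 5 of 8 alveolar type I markers were higher in sgCebpa/b/d (*Akap5*, *Clic5*, *Hopx*, *Pdpn* and *Rtkn2*) and 3 of 6 type II markers lower (*Abca3*, *Lamp3* and *Slc34a2*), and their part was not tested. Among MT-numbered libraries *Cyr61* differed by −0.30 ± 0.22 (adjusted p = 0.511).

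Set against each other, the targeted groups differed in 4 of 16 target genes, where 5.96% of all genes passed. *Crim1* (−1.37 ± 0.35, adjusted p = 0.0224), *Nt5e*, for the ectonucleotidase CD73 (−1.39 ± 0.39, adjusted p = 0.0349), and *Rbms3* (−0.67 ± 0.13, adjusted p = 0.00184) were lower in sgCebpa/b/d, and *Dock5*, for a guanine nucleotide exchange factor (0.39 ± 0.11, adjusted p = 0.0339), was higher. *Nt5e* had 22.7 to 49.6 CPM in sgCebpa/b/d and 94.1, 82.5, 106, 119 and 90.6 CPM in sgLkb1, without overlap, while sgInert spanned 13.2 to 99.5 CPM. In the MT series *Crim1* (−1.29 ± 0.31, adjusted p = 0.0228) and *Nt5e* (−1.53 ± 0.38, adjusted p = 0.0250) kept their calls, while *Rbms3* (−0.53 ± 0.16, adjusted p = 0.0597) and *Dock5* (0.49 ± 0.15, adjusted p = 0.0639) did not. *Msln* was also lower in sgCebpa/b/d, by 3.37 ± 0.66 on the log2 scale (adjusted p = 0.00253), and its part was not tested.

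Of 28 Hippo regulator genes, 27 were tested. In sgCebpa/b/d against sgInert 3 of 27 passed, near the 10.1% of all genes that did. The atypical cadherin gene *Fat4* (2.55 ± 0.63, adjusted p = 0.0102) and *Wwc2*, for a KIBRA-family scaffold (0.39 ± 0.10, adjusted p = 0.0139), rose, and *Mob1b*, for a LATS cofactor, fell by 0.52 ± 0.14 (adjusted p = 0.0237). For sgLkb1 1 of 27 passed, *Fat4* (3.13 ± 0.66, adjusted p = 0.00566), where 5.78% of all genes did. In sgCebpa/b/d against sgLkb1 *Amotl1*, for an angiomotin-like protein, was the 1 of 27 that passed (0.36 ± 0.10, adjusted p = 0.0258), where 5.96% of all genes did. The median log2 fold changes of the 27 were 0.00, −0.01 and 0.00 in the 3 comparisons. Within the MT series 3 of 27 passed in each targeted group against sgInert, near the 8.55% and 6.97% of all genes. They were *Limd1*, *Mark1* and *Wwc2* in sgCebpa/b/d, and *Fat4*, *Mark1* and *Taok3* in sgLkb1. *Mob1b* (−0.35 ± 0.12, adjusted p = 0.104) and *Amotl1* (0.29 ± 0.12, adjusted p = 0.192) did not keep their calls there. The core kinase genes *Stk3*, *Stk4* and *Lats1* and the scaffold genes *Sav1* and *Nf2* did not pass in any comparison over all libraries with no covariate. Nor did the MARK genes *Mark1* to *Mark4* or *Scrib*. With title series as a covariate, *Mark1* passed against sgInert in both targeted groups, where 6.62% and 4.7% of all genes passed. Against sgInert that fit rests mainly on the same MT libraries and is not separate support.

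*Fat4* was low, with 1 to 16 counts in sgInert libraries. It had 0.182 to 3.02 CPM there, and 11.2, 10.03, 16.7, 6.29 and 21.99 CPM in sgLkb1, without overlap. In sgCebpa/b/d the 3 libraries without an animal number had 10.7 to 21.7 CPM and the 4 MT-numbered ones 1.09 to 4.29 CPM. Within the MT series the log2 fold change of *Fat4* was 0.74 ± 0.68 (adjusted p = 0.611) in sgCebpa/b/d and 2.91 ± 0.69 (adjusted p = 0.0195) in sgLkb1. *Fat4* is known to be expressed in mesenchymal and endothelial cells, and the endothelial marker sum of the sgCebpa/b/d libraries was 170 to 246 CPM without an animal number and 13.02 to 47.3 CPM in the MT series. The part of those cells was not tested.

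Of 7 other TEAD and VGLL genes, which encode DNA-binding partners and TEAD cofactors, 5 were tested (*Vgll1* and *Vgll2* were too low). None of the 5 passed by edgeR against sgInert in sgCebpa/b/d, where 10.1% of all genes did, or in sgLkb1, where 5.78% did. An unadjusted p under 0.05 was found for 1 and 0 of the 5, against 23.2% and 18.5% of all genes. Between the targeted groups 1 of 5 passed, where 5.96% of all genes did. This was *Vgll4*, for a cofactor that competes with YAP for TEAD, higher in sgCebpa/b/d than in sgLkb1 by 0.86 ± 0.21 (adjusted p = 0.0145). It had 25.6 to 52.4 CPM in sgCebpa/b/d and at most 21.3 CPM in every sgLkb1 library. In the MT series this difference was 0.90 ± 0.21 (adjusted p = 0.0164).

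**Figure D4:**
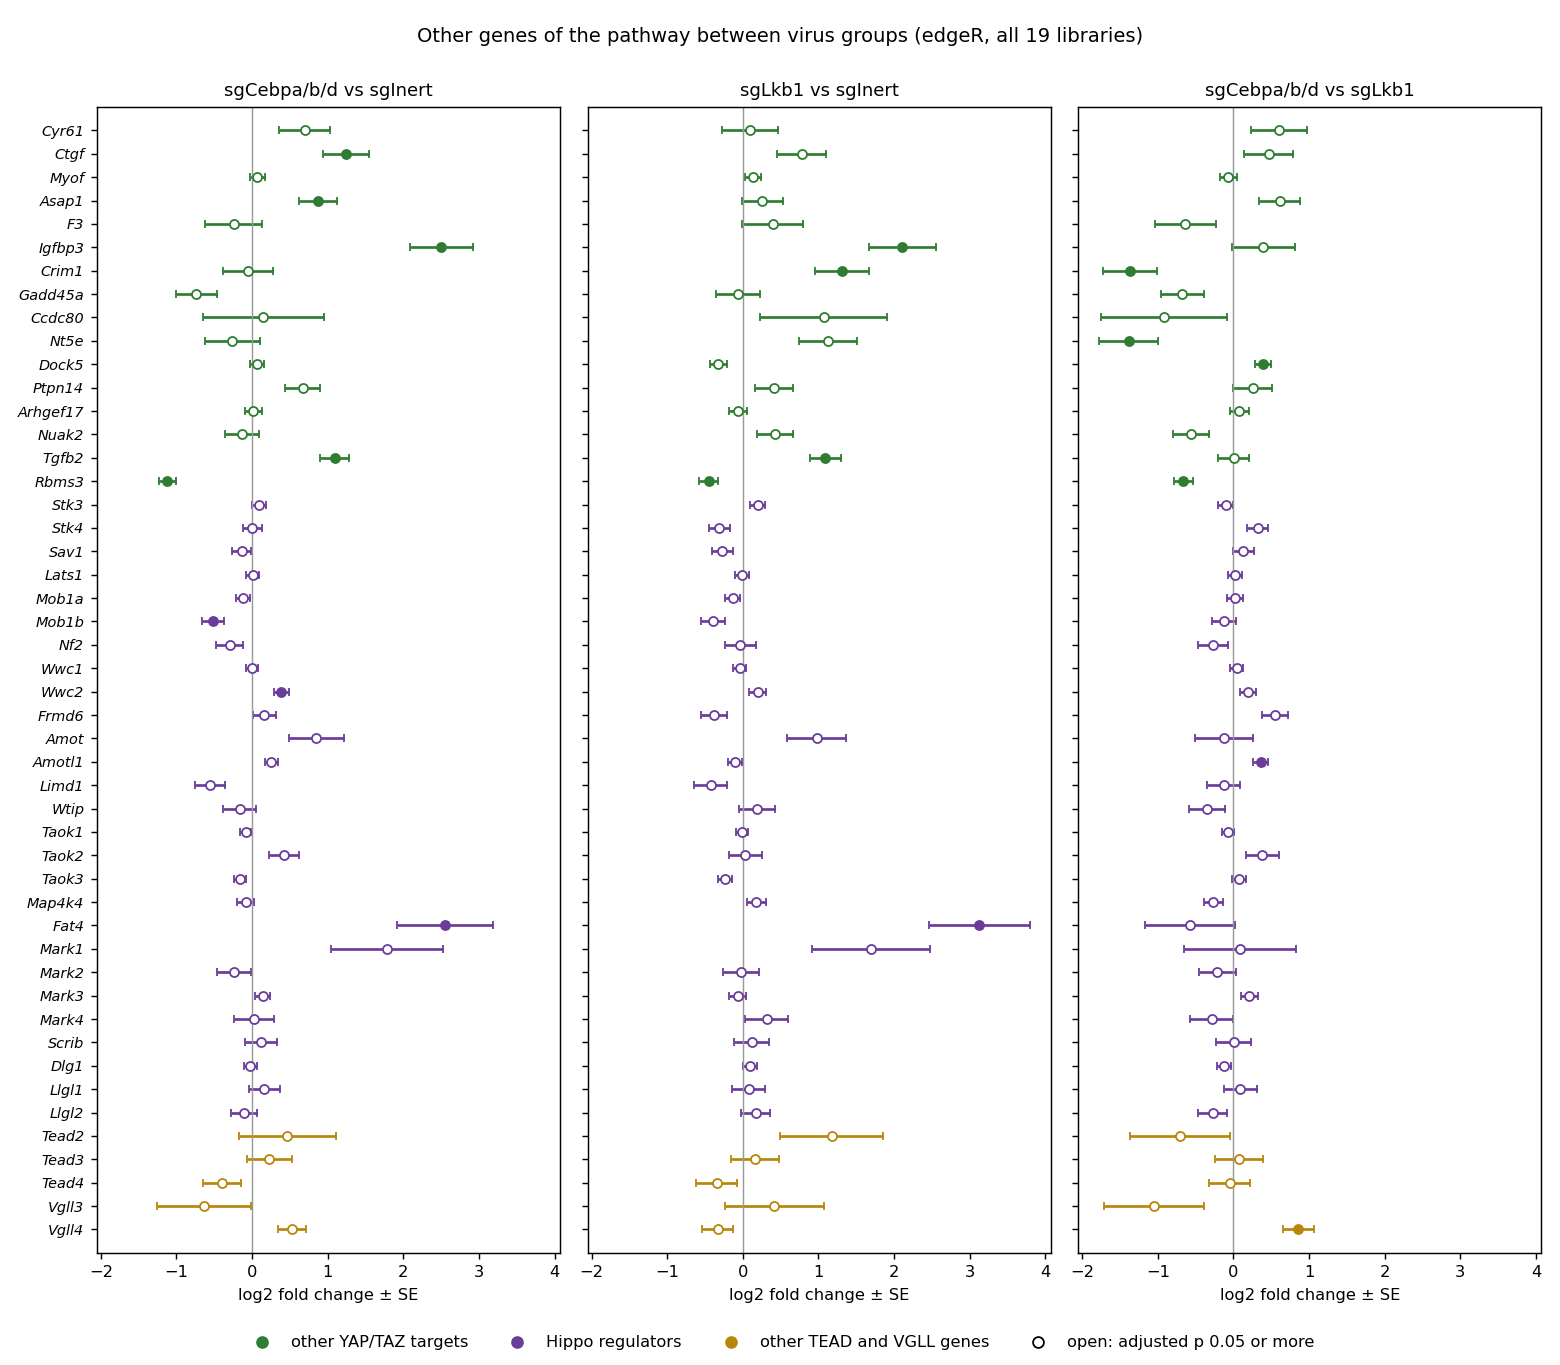
Log2 fold change with SE bars (edgeR, all 19 libraries) of the tested genes of the 3 pathway lists in each comparison. Filled points had an adjusted p under 0.05. *Fat4* lay farthest to the right, at 2.55 and 3.13 against sgInert, and *Rbms3* was lower than sgInert in both targeted groups.

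The members varied together only in part. Over the 19 libraries, log2 CPM of *Wwtr1* and *Tead1* had a Pearson r of 0.86 (Spearman 0.78), the highest of the 21 pairs, while *Yap1* and *Wwtr1* had an r of 0.07 (Spearman 0.02). *Tead1* and *Axl* had an r of 0.64 (Spearman 0.60). These libraries share virus groups, title series and animals, so the correlations are descriptions. Among 11081 other genes with an average log2 CPM of at least 2, those most like each member over the 19 libraries were *Ndst1* (r = 0.88) and *Rasgef1b* (0.87) for *Wwtr1*, and *Fnip1* (0.78) and *Xk* (0.74) for *Yap1*. For *Tead1* they were *Bhlhe40* (0.89) and *Per1* (0.88), and for *Axl* *Per3* (0.88) and *Ear2* (0.86). For *Lats2* they were *Fbxo32* and *Rc3h1* (both 0.77), for *Amotl2* *Zmym5* (0.82) and *Fam172a* (0.81), and for *Ajuba* *Als2cl* and *S100a14* (both 0.73).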

How the data were processed

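RNA of sorted neoplastic cells was sequenced as paired reads in 19 libraries. Per the labels and the study's methods, the authors aligned reads to mm10 with STAR 2.6.1d and deposited RSEM 1.2.30 expected counts and TPM for each gene. RSEM shares reads among genes by estimation, and whether counting used strand is not given in the sources used here. The authors also computed effective lengths.

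Expected counts were rounded and tested with edgeR 4.0.16 (R 4.3.3) by the quasi-likelihood test, in 1 model of the 3 groups with no covariate, after TMM scaling and filterByExpr (13986 genes kept, minimum count 10). Benjamini-Hochberg adjustment ran over all genes tested, with a threshold of 0.05. Log2 CPM used a prior count of 2. Intervals are 95% intervals from the model's SE. DESeq2 1.42.0 and limma 3.58.1 on log2(TPM + 1) or log2(TPM + 0.1) were alternatives, and every test was tested on simulated data. The members were compared in all 3 comparisons; of the pathway lists, the genes past the threshold were named, with *Cyr61* and some Hippo genes that did not pass added after their values were seen, and for each member the 2 genes most like it. The members and lists were chosen with earlier results of these data known. Libraries were grouped by the virus in the labels. Nothing in the labels ties libraries to separate animals throughout, so p-values measure the spread between libraries. No libraries agreed within sampling noise. The deposited tables of the authors' own DESeq2 comparisons (fold changes and p-values) and of their DESeq2-normalized counts were not used here. At 2760731 to 9944134 expected counts per library, genes below about 1 CPM rest on fewer than 10 counts. One allele that all groups carry is not reported here.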

Additional observations from a re-analysis of the deposited data

Results flagged for a closer look

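Among 63 gene groups of 5 to 7 libraries examined for a library far from its group, 5 had one, where chance gives about 5% of groups. All are levels in log2 CPM. *Lats2* in sgCebpa/b/d replicate 5 was at 6.31, with a group median of 5.62 and the nearest library at 5.72. *Ctgf* in sgLkb1 replicate 4 was at 4.98, against a median of 5.83. *Tgfb2* in sgInert replicate 7 was at 2.63, against a median of 3.90. *Mob1b* in sgInert replicate 6 was at 8.22, against a median of 9.12. *Vgll4* in sgCebpa/b/d replicate 3 was at 5.72, against a median of 4.93.

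The effects of the targeted groups, both set against sgInert, differed from each other by the edgeR test of sgCebpa/b/d against sgLkb1 for 6 pathway genes and for no member. The log2 fold changes were −0.67 for *Rbms3* (adjusted p = 0.00185), −1.37 for *Crim1* (0.0224), −1.39 for *Nt5e* (0.0349), 0.36 for *Amotl1* (0.0258), 0.86 for *Vgll4* (0.0145) and 0.39 for *Dock5* (0.0339).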

How the results depend on the processing

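Of 300 recomputed list counts, 230 stayed within 1.5 times the reported count. Of 700 recomputed member log2 fold changes, 623 kept direction and side of the threshold, 52 changed sign, 15 lost and 10 gained a call. Causes were not tested. Of these recomputed fits, the share of all genes called was taken only for MT libraries and title series against sgInert and for libraries without a number. In the other fits, a changed count cannot be read as particular to a list. Below, the order of comparisons is named each time, and low counts such as *Ajuba* and *Axl* limit precision most.

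Members past the threshold in sgCebpa/b/d against sgInert (1) numbered 0 with only the 2 groups compared, only females, libraries of the same animal number summed (also with those lacking a number summed per virus), limma with either pseudocount, or the replicate block, 2 with title series as a covariate or only MT libraries, and 0 to 1 with 1 library left out. *Wwtr1* had an adjusted p of 0.0121 to 0.511 over the 14 alternatives and passed in 7. In sgLkb1 against sgInert (0) they numbered 2 with title series, 3 in MT libraries, and 2 (*Tead1*, *Ajuba*) and 1 with limma on log2(TPM + 1) and log2(TPM + 0.1). With a pseudocount of 1, the all-gene median in sgLkb1 against sgInert was 0.18.

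Target genes in sgCebpa/b/d against sgInert (5) numbered 3 in females and 2 with both kinds of summing. For sgLkb1 against sgInert (4) they numbered 7 in MT libraries and 1 with both kinds of summing, and 2 to 4 with 1 library left out (2 without sgInert replicate 7 or sgLkb1 replicate 1). For the targeted groups (4) they numbered 2 with gene length offsets, 1 with animals summed, 0 with both kinds of summing, 2 with the replicate block and 1 to 4 with 1 library left out. Hippo genes in sgCebpa/b/d against sgInert (3) numbered 1 in females, 0 with both kinds of summing or limma, and 2 to 5 with 1 library left out (5 without sgInert replicate 6). For sgLkb1 against sgInert (1) they numbered 5 with sex as a covariate or only females, 3 with title series or MT libraries, 0 with limma, and 1 to 3 with 1 library left out. For the targeted groups (1) they numbered 2 with DESeq2, 2 groups, sex, title series or MT libraries, 4 in females, 0 with length offsets, no filter, libraries without a number, either summing, limma or the replicate block, and 0 to 2 with 1 library left out.

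Signs changed as follows in sgCebpa/b/d against sgInert. *Yap1* was 0.009 with title series, *Lats2* −0.0024 with length offsets and −0.0476 in females, *Amotl2* −0.13 with title series, −0.30 in MT libraries and −0.34 in females, and *Axl* −0.10 with both kinds of summing. In sgLkb1 against sgInert, *Yap1* was 0.0515 and 0.0527 with limma. *Lats2* was 0.0365 with sex, 0.11 with title series, 0.14 in MT libraries, and 0.0949 and 0.10 with limma. *Amotl2* was −0.17 with title series and −0.0693 in females, and *Axl* −0.16 with both kinds of summing. Between the targeted groups, *Yap1* was −0.0271 in MT libraries, −0.0187 with both kinds of summing, and −0.145 and −0.15 with limma. *Wwtr1* was −0.074 in MT libraries, −0.013 in females, and −0.0843 and −0.0857 with limma. *Tead1* was 0.0439 and *Ajuba* 0.19 in libraries without a number. *Lats2* was −0.0209 in females, and −0.0853 and −0.0919 with limma. *Amotl2* was −0.0184 with sex, −0.31 in MT libraries, −0.27 in females, and −0.19 and −0.20 with limma. *Axl* was −0.84 with sex, −0.0479 in MT libraries and −0.92 in females.

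With 1 library left out, the ranges that crossed 0 were −0.0026 to 0.10 for *Yap1*, −0.0365 to 0.16 for *Lats2*, −0.0315 to 0.19 for *Amotl2* and −0.14 to 0.44 for *Axl* between the targeted groups, −0.10 to 0.14 for *Lats2* in sgCebpa/b/d against sgInert, and −0.15 to 0.0247 for *Lats2* and −0.0846 to 1.01 for *Axl* in sgLkb1 against sgInert.

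Replicate numbers did not pair libraries: deviations of 17 same-numbered pairs correlated at −0.147 to 0.232, and those of 102 others at −0.225 to 0.224. With the replicate block, *Wwtr1* in sgCebpa/b/d against sgInert was 0.55 ± 0.17 (edgeR adjusted p = 0.0529), and between the targeted groups *Amotl2* was −0.0277 and *Axl* −0.18.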
